A study of Mus musculus with 201 samples.

Results

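Neurexins, neuroligins and LRRTMs are cell surface proteins that join the 2 sides of a synapse. Neurexins sit mainly on the presynaptic membrane, where they organize the release machinery, and both neuroligins and LRRTMs (leucine-rich repeat transmembrane neuronal proteins) sit on the postsynaptic membrane and bind them across the cleft. Neuroligins and LRRTMs recruit scaffolds and receptors to the synapse, and dentate granule cells, the principal excitatory neurons of the dentate gyrus, both receive and make such contacts. The genes described here were 9 listed members of these families among 42609 gene symbols held by all 3 tables of the series: the 2 neurexins Nrxn2 and Nrxn3, the 3 neuroligins Nlgn1, Nlgn2 and Nlgn3, and the 4 LRRTM genes Lrrtm1, Lrrtm2, Lrrtm3 and Lrrtm4. They were chosen by name and family and not by a measured value, although earlier results of these data were known.

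RNA-seq was performed on single whole cells and single nuclei of mouse dentate granule cells in 5 groups. GFP+ whole cells came from Prox1-GFP mice, in which the promoter of the granule cell transcription factor Prox1 drives the fluorophore, given either PTZ, a GABA(A) receptor antagonist that causes seizures (50 mg per kg), or saline, and killed 1 h later. Nuclei came from C57BL/6 females aged 8 weeks. One set was from a mouse put for 15 min into an environment that was new to it (NE) and was killed 1 h later, sorted as Prox1+/Fos+ (FOS+ nuclei) or Prox1+/Fos- (FOS- nuclei), and the other was from a mouse kept in its home cage (HC), sorted as NeuN+/Prox1+. FOS is an immediate early transcription factor whose protein marks recently active neurons. The depth and gene criteria kept 40 of 48 FOS+ nuclei, 41 of 48 FOS- nuclei, 30 of 35 PTZ-treated cells, 38 of 47 saline-treated cells and all 23 HC nuclei.

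Each sample was 1 cell or nucleus and no label named its animal, so every group counted as 1 sample. Cells of 1 pool are not replicates of a condition, and for this reason no test was run and no p-value is given. A gene was called detected in a cell at a TPM (the length-scaled share of a cell's transcripts) above 1, and shares of cells are given with exact (Clopper-Pearson) 95% binomial intervals. Counts were summed over a group and scaled to that group's summed total (CPM). All intervals cover counting error only. Those of CPM are exact Poisson intervals of summed reads, which carried no molecular identifiers. They cover neither amplification nor the spread between cells. Differences were named by size, either at least 20 percentage points in the share of cells or at least 2-fold in the CPM of the summed counts, and were read against the percentage of all genes that passed the same limit. Whole cells, NE nuclei and HC nuclei were amplified or sequenced differently and stand side by side without comparison.

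Median total counts were 269061 in FOS+ and 214421 in FOS- nuclei, 1090750 in PTZ-treated and 975934 in saline-treated cells, and 165926 in HC nuclei. In NE nuclei the granule cell marker Calb1 was detected in 40 of 40 FOS+ and 41 of 41 FOS- nuclei, and Prox1 in 33 and 34. Arc, an immediate early gene, was detected in 31 of 40 FOS+ nuclei and in 1 of 41 FOS- nuclei, in the direction of the sort. Before comparing the sorts, the paper left out some FOS+ nuclei that clustered with FOS- nuclei by gene expression. No nucleus was left out on that ground here. Of 11 defining markers of glia, interneurons and endothelium, 6 were at 0 in every FOS+ nucleus (Aldh1l1, C1qa, Cspg4, Mog, Slc32a1 and Cldn5), 3 in every FOS- nucleus (Aldh1l1, C1qa and Cldn5), 7 in every PTZ-treated cell, 9 in every saline-treated cell and 11 in every HC nucleus. Their summed TPM ranged from 0 to 2982 (median 0) in FOS+ nuclei, from 0 to 128 (median 0) in FOS- nuclei, from 0 to 833 in PTZ-treated cells and from 0 to 1.67 in saline-treated cells. A marker above 20 TPM was present in 7 FOS+ nuclei, 5 FOS- nuclei and 1 PTZ-treated cell. Less specific genes of these cell types were detected widely. The myelin genes Mag and Mbp passed 1 TPM in 23 and 24 of 40 FOS+ nuclei and in 14 and 20 of 41 FOS- nuclei. The GABA synthesis genes Gad1 and Gad2 did so in 19 and 14 FOS+ and in 15 and 7 FOS- nuclei, and the microglial gene Cx3cr1 in 29 and 33. Mag, Mbp, Gad1 and Gad2 were thus detected in a larger share of FOS+ nuclei, in the direction of Nlgn2 and opposite to Lrrtm1, and their part in those differences was not tested.

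Among the 9 members, Nlgn2 and Lrrtm1 differed most in detection between FOS+ and FOS- nuclei, and their promoters are shown for this reason. RefSeq (GRCm38.p6) gave 10 starts for 6 of the 9 members. The 250 bases before the start of Nlgn2 (chr11:69837785-69838034, minus strand) and of Lrrtm1 (chr6:77242227-77242476, plus strand) are shown 5′ to 3′ with every CG dinucleotide in capitals.
Nlgn2: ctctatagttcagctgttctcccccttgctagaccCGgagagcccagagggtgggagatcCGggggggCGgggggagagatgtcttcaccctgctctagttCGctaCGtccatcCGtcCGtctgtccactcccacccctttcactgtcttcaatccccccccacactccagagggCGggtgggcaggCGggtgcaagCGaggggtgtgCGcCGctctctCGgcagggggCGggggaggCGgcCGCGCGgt
Lrrtm1: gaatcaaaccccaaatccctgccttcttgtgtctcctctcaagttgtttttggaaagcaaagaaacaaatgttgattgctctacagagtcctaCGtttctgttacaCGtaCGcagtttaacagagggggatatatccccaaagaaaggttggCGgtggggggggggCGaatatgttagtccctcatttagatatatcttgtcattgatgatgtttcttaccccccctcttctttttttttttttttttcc
The Nlgn2 window had a GC content of 67.6% and 18 CG dinucleotides, and the Lrrtm1 window had 42% and 5, where the median over 32851 promoter windows was 52.4% and 6. Neither window held the AP-1 motif TGANTCA, to which FOS-containing dimers bind, on either strand, and across the 10 member windows 1 did (Nrxn3), against 6.75% of all windows. The cyclic AMP response element TGACGTCA was in none of the 10 and in 1.55% of all windows. Its shorter form TGACG, which every full element contains, was in none of the 10 and in 17.8% of all. The EGR motif GCGTGGGCG was in none of the 10 and in 0.536% of all. A missing match says only that these letters were not in these windows.

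In GENCODE M21 (GRCm38), 3 of the LRRTM genes lay inside a catenin gene on the opposite strand. Lrrtm1 (chromosome 6, 77242689 to 77257791, plus strand) lay inside Ctnna2 without overlapping its exons, and Lrrtm3 (chromosome 10, 63928472 to 64090277, minus strand) lay inside Ctnna3 in the same way. Lrrtm2 (chromosome 18, 35209003 to 35215024, minus strand) lay inside Ctnna1, with exons of both genes overlapping. Catenins of this family link cadherins to the actin cytoskeleton. Lrrtm4 (chromosome 6, 80018877 to 80810143, plus strand) overlapped no other protein-coding gene, and neither did Nlgn1 (chromosome 3, 25426215 to 26332460, minus strand), Nlgn2 (chromosome 11, 69823122 to 69837784, minus strand), Nlgn3 (chromosome X, 101299168 to 101325963, plus strand) or Nrxn3 (chromosome 12, 88722876 to 90334935, plus strand). Nrxn2 (chromosome 19, 6418731 to 6544169, plus strand) held the urate transporter gene Slc22a12 on the opposite strand, with overlapping exons. Shared sequence was sought in annotated spliced transcripts, so host introns, in which Lrrtm1 and Lrrtm3 lie, were not covered. Among windows of 50 bases in the members' transcripts, none of Nlgn2, Lrrtm1 or Lrrtm3 occurred in a spliced transcript of another gene. The share was 40.9% for Nlgn3, mostly with Gm21986, a non-coding model on the same strand, and 24% for Lrrtm4, all with the antisense model Gm4409, so the split of reads between these gene models is uncertain. It was 8.77% for Nlgn1, 5.29% for Nrxn2, 3.04% for Nrxn3 and 0.758% for Lrrtm2.

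**Figure D1:**
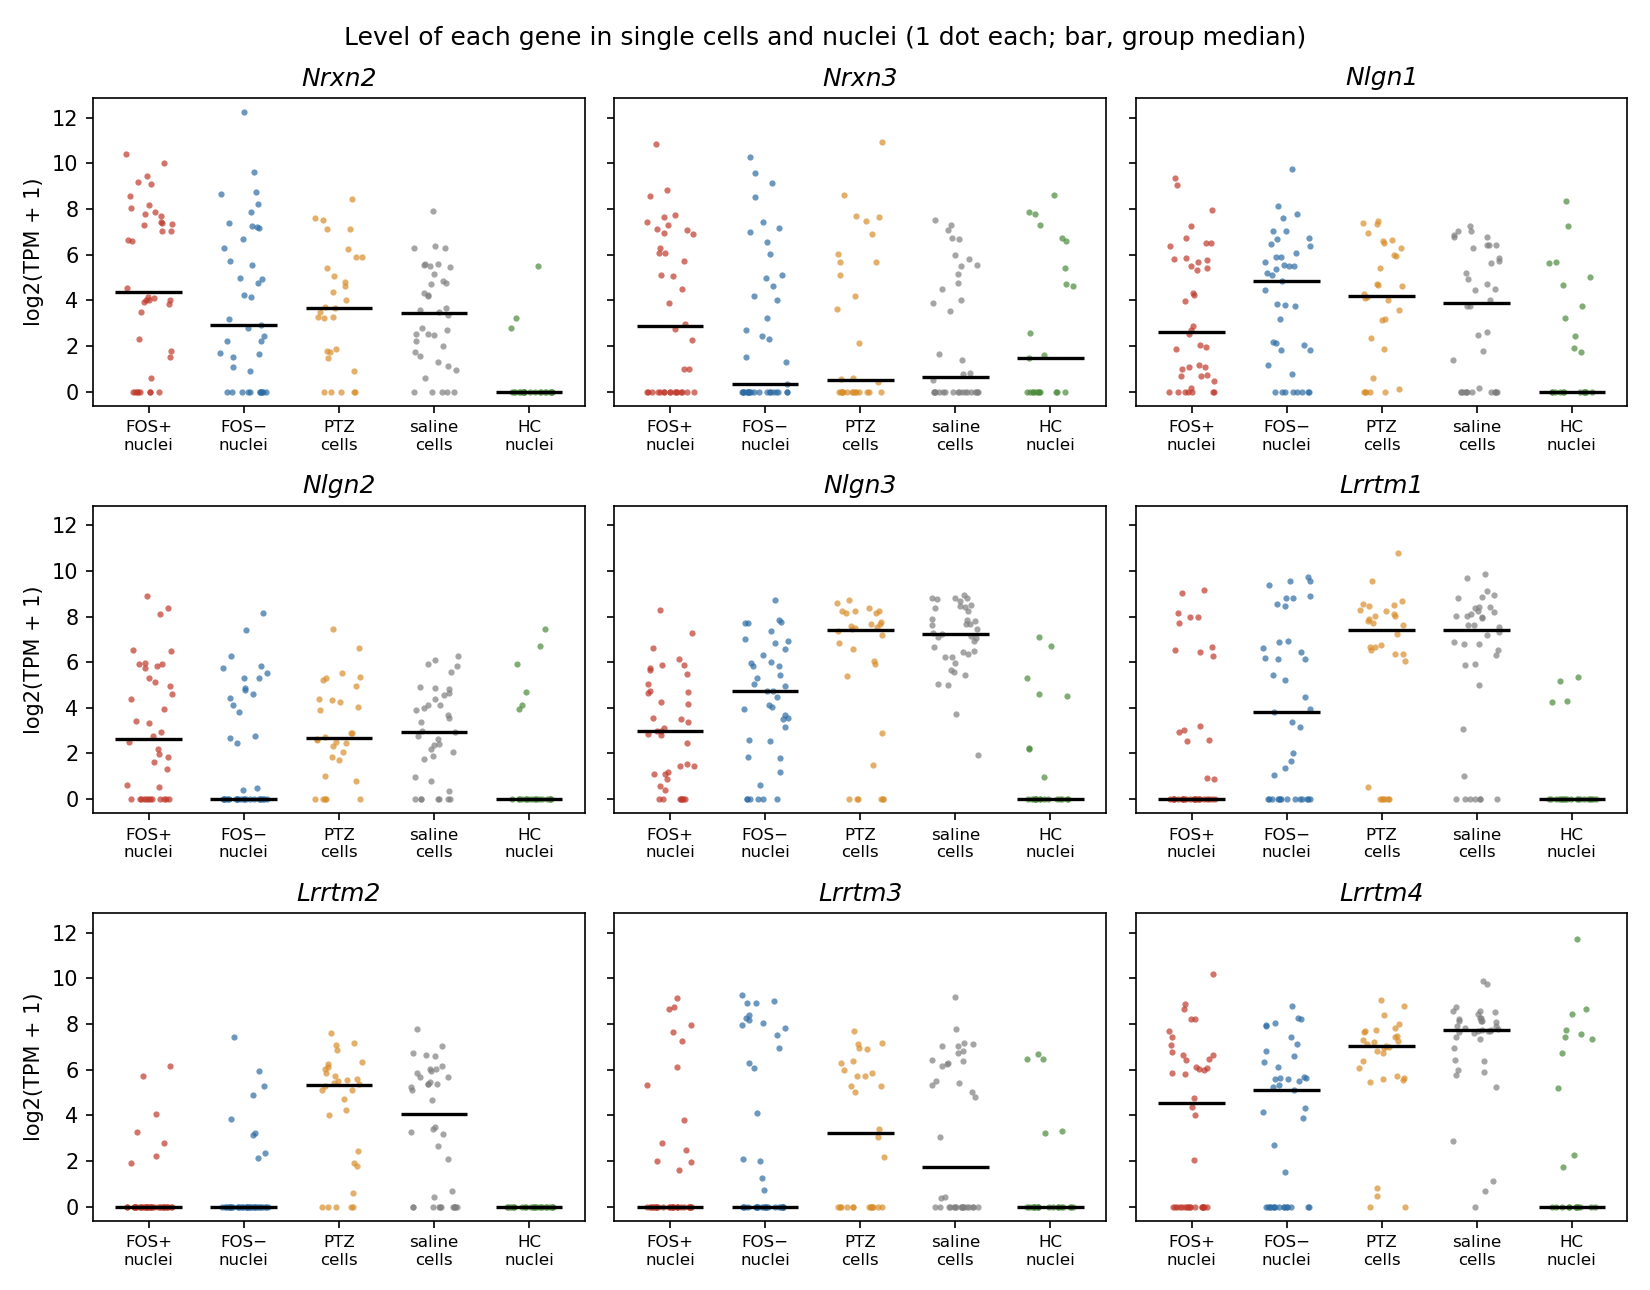
Level of each of the 9 genes, as log2(TPM + 1), in every cell or nucleus kept. Each dot is 1 cell or nucleus and each bar the group median. Most genes formed a cloud of detected cells above a row of cells at 0, and Nlgn3 in saline-treated cells was the one case with no cell at 0.

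The neurexins were detected slightly more often in FOS+ than in FOS- nuclei. Nrxn2 was detected in 31 of 40 FOS+ nuclei (77.5%, with an interval of 61.5 to 89.2) and 29 of 41 FOS- nuclei (70.7%, 54.5 to 83.9). Its TPM ran from 0 through a median of 19.6 to 1348 in FOS+ nuclei and from 0 through 6.65 to 4885 in FOS- nuclei. The ranges overlapped fully, and the summed counts of 2244 and 1489 gave a CPM 1.46-fold higher in FOS+ nuclei. Nrxn3, the other neurexin, was detected in 22 of 40 (55.0%, 38.5 to 70.7) and 20 of 41 (48.8%, 32.9 to 64.9). Median TPM of Nrxn3 was 6.32 against 0.24 and the highest value 1837 against 1230, with a CPM 1.12-fold higher in FOS+ nuclei. Both differences in share, 6.77 points for Nrxn2 and 6.22 for Nrxn3, were smaller than the width of either group's interval. The intervals of the 2 groups overlapped for both genes.

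Nlgn2 was the only member detected at least 20 points more often in FOS+ nuclei. Its protein is the neuroligin of inhibitory synapses, whereas that of Nlgn1 is concentrated at excitatory ones and that of Nlgn3 is found at both. Nlgn2 was detected in 26 of 40 FOS+ nuclei (65%, 48.3 to 79.4) and 17 of 41 FOS- nuclei (41.5%, 26.3 to 57.9), a difference of 23.5 points. TPM of Nlgn2 ran from 0 through a median of 5.22 to 474 in FOS+ nuclei and from 0 through 0 to 281 in FOS- nuclei, so the groups overlapped over most of their range. Summed counts were 1947 and 949, a CPM of 135 (129 to 141) against 68 (63.7 to 72.4). The 1.98-fold difference stayed just under the 2-fold limit, and 48.2% of the FOS- counts came from 1 nucleus. Leaving out the highest nucleus of each group gave a log2 ratio of 1.54, past that limit. Across 16411 genes, 4.30% were detected at least 20 points more often in FOS+ nuclei, and Nlgn2 was 1 of 9 members. The difference in share was 11 points at a TPM limit of 5 and 15.3 points with every nucleus thinned to 50000 reads. It was 14.6 points over all nuclei deposited and 19.2 points without marker-bearing nuclei, those with any of the 11 defining markers above 20 TPM. All 4 values were below 20 points and on the same side. Nuclei were not left out for the less specific genes of other cell types, such as Mag or Gad1.

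Nlgn1 and Nlgn3 were detected somewhat less often in FOS+ nuclei. Nlgn1 was detected in 27 of 40 (67.5%, 50.9 to 81.4) and 32 of 41 (78.0%, 62.4 to 89.4). Its median TPM was 5.18 in FOS+ nuclei, with a highest value of 662, and 27.6 in FOS- nuclei, with a highest value of 856. Summed counts of Nlgn1 were nearly equal, 3033 and 3046. Nlgn3 was detected in 30 of 40 (75%, 58.8 to 87.3) and 34 of 41 (82.9%, 67.9 to 92.8), with median TPM of 6.92 and 25.7 and highest values of 308 and 424. Its CPM was 1.6-fold higher in FOS- nuclei, although 1 FOS+ nucleus held 51.7% of that group's counts.

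Over all nuclei, all 4 LRRTM genes had a lower share and a lower CPM in FOS+ than in FOS- nuclei. Of 16411 genes compared, 9380 also had a lower CPM in FOS+ nuclei, so this was the more common direction. The CPM ratio of Lrrtm4 changed sign with both other scalings and with equal weight per nucleus. The ratios of Lrrtm1 and Lrrtm4 were above 1 within the nuclei at 1 of 2 spike-in dilutions, given further on. At that dilution, 1 to 200, the shares of Lrrtm3 and Lrrtm4 were higher in FOS+ nuclei, by 12.9 and 16.9 points. Over all nuclei, Lrrtm1 had the largest difference in share. Lrrtm1 was detected in 15 of 40 FOS+ nuclei (37.5%, 22.7 to 54.2) and 27 of 41 FOS- nuclei (65.9%, 49.4 to 79.9), 28.4 points lower in FOS+ nuclei. Median TPM was 0 in FOS+ nuclei, with a highest value of 566, and 13.1 in FOS- nuclei, with a highest value of 847. The detected nuclei of both groups covered much the same range. Summed counts of 933 and 3367 gave a CPM of 64.5 (60.5 to 68.8) and 241 (233 to 249), 3.74-fold higher in FOS- nuclei. The log2 ratio was -1.90 from summed counts and -1.12 with each nucleus weighed the same. Across all genes, 3.69% were detected at least 20 points more often in FOS- nuclei, and Lrrtm1 was 1 of 9 members. With a detection limit of 5 counts the difference was -18.8 points, and over the other alternatives that used all 4 amplification conditions it ran from -30.5 to -21.1.

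Lrrtm2 and Lrrtm3 were sparse in NE nuclei. Lrrtm2 was detected in 7 of 40 FOS+ nuclei (17.5%, 7.34 to 32.8) and 9 of 41 FOS- nuclei (22%, 10.6 to 37.6), with a median of 0 TPM in both and highest values of 71.0 and 173. Its summed counts were 91 and 385, a CPM of 6.29 against 27.6, with 42.9% and 35.1% of them from 1 nucleus each. Lrrtm3 was detected in 14 of 40 (35%, 20.6 to 51.7) and 18 of 41 (43.9%, 28.5 to 60.3), with a median of 0 TPM in both and highest values of 569 and 620. CPM of Lrrtm3 was 52.4 against 137, 2.61-fold higher in FOS- nuclei. Lrrtm4 was detected in 23 of 40 (57.5%, 40.9 to 73) and 26 of 41 (63.4%, 46.9 to 77.9). Its median TPM was 22.7 against 33.4 and its highest value 1187 against 444, and its log2 ratio of -0.11 turned positive (0.13) with TMM scaling.

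By the 2-fold limit, 3 of the 9 members (Lrrtm1, Lrrtm2 and Lrrtm3) were higher in FOS- nuclei, where 28.2% of all genes were, and 0 of 9 were higher in FOS+ nuclei, where 17.8% of all genes were. Nlgn2, at a log2 ratio of 0.99, also passed the limit with TMM scaling (1.23), with median-ratio scaling (1.19), with equal weight per nucleus (1.12) and without marker-bearing nuclei (1.11). The count of 3 of 9 was close to the background share. The median gene had a log2 ratio of -0.20, and the median of the 9 members was -0.11. The median difference in share was -5.91 points over the members and -0.79 over all genes.

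**Figure D2:**
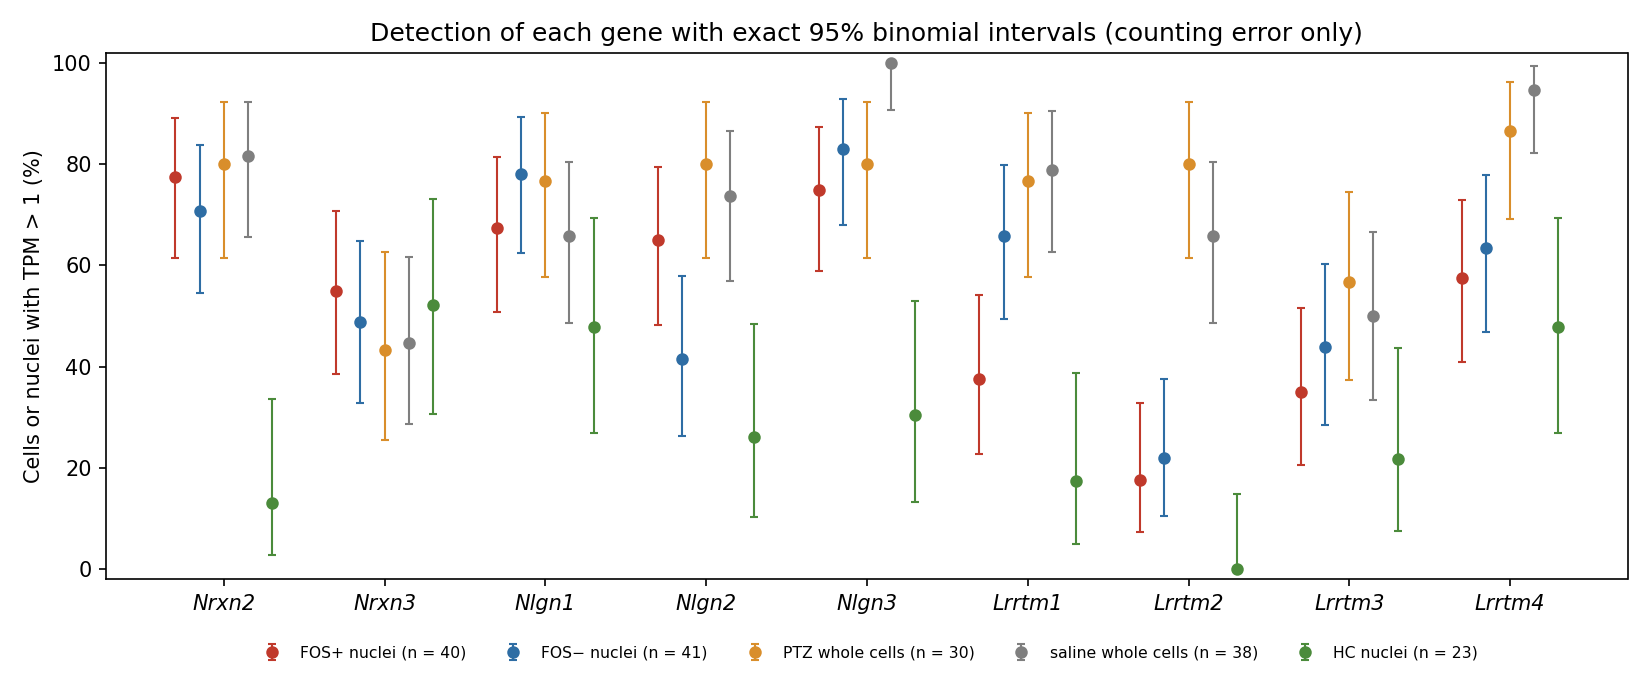
Share of cells or nuclei with TPM above 1 (y axis, percent) for each gene, with exact 95% binomial intervals, in the 5 groups. Nlgn2 sits at 65% in FOS+ and 41.5% in FOS- nuclei and Lrrtm1 at 37.5% and 65.9%, and for every other gene the intervals of FOS+ and FOS- nuclei overlap over most of their length.

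The NE nuclei had been amplified under 4 conditions, with 1 or 10 µM of template-switching oligonucleotide and ERCC spike-in RNA diluted 1 to 200 or 1 to 2000, and the LRRTM differences were unequal across them. At a dilution of 1 to 200, Lrrtm1 was detected in 11 of 21 FOS+ nuclei (52.4%, 29.8 to 74.3) and 11 of 20 FOS- nuclei (55.0%, 31.5 to 76.9). At 1 to 2000 the numbers were 4 of 19 (21.1%, 6.05 to 45.6) and 16 of 21 (76.2%, 52.8 to 91.8), a gap of 55.1 points. The difference in the share of Lrrtm1 was thus near 0 at 1 to 200. The ratio of its CPM changed direction between the dilutions. At 1 to 200, 784 and 285 summed counts gave a CPM 1.76-fold higher in FOS+ nuclei (173 against 98.5), and at 1 to 2000, 149 and 3082 counts gave a CPM 18.6-fold higher in FOS- nuclei (15 against 278). Of the 4 conditions, 2 had a higher and 2 a lower CPM in FOS+ nuclei. With 1 µM oligonucleotide, Lrrtm1 was detected in 0 of 8 FOS+ and 7 of 10 FOS- nuclei at 1 to 2000 (2 and 1952 counts), and in 4 of 10 and 4 of 10 at 1 to 200 (364 and 72 counts).

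The difference in share of Lrrtm3 and Lrrtm4 changed sign between the dilutions. Lrrtm3 was detected in 9 of 21 FOS+ and 6 of 20 FOS- nuclei at 1 to 200, and in 5 of 19 and 12 of 21 at 1 to 2000. Lrrtm4 was detected in 13 of 21 and 9 of 20 at 1 to 200, and in 10 of 19 and 17 of 21 at 1 to 2000. Within the 1 to 2000 nuclei, 3 of 9 members (Lrrtm1, Lrrtm3 and Lrrtm4) were detected at least 20 points more often in FOS- nuclei, where 13.6% of all genes were, and 1 of 9 (Nlgn2) more often in FOS+ nuclei, where 5.48% of all genes were. Within the 1 to 200 nuclei, 0 of 9 members passed 20 points in either direction, against 11.8% of all genes higher in FOS+ and 3.90% higher in FOS- nuclei. By the 2-fold limit, 2 of 9 members (Nlgn2 and Lrrtm4) were higher in FOS+ nuclei at 1 to 200, where 23.1% of all genes were, and 2 (Nlgn3 and Lrrtm2) were higher in FOS- nuclei, where 25.5% were. At 1 to 2000, 0 of 9 were higher in FOS+ nuclei (19.5% of all genes) and 3 (Lrrtm1, Lrrtm2 and Lrrtm3) were higher in FOS- nuclei (33.1%). The number of genes detected per nucleus also differed in opposite directions at the 2 dilutions. At 1 to 2000 it was lower in FOS+ nuclei, 5522 ± 1122 (SD, n = 8) against 6259 ± 957 (n = 10) with 1 µM and 6916 ± 1918 (n = 11) against 7960 ± 1196 (n = 11) with 10 µM. At 1 to 200 it was higher, 5678 ± 1234 (n = 10) against 4694 ± 683 (n = 10) and 6397 ± 668 (n = 11) against 6044 ± 1114 (n = 10). Its part in the LRRTM differences was not tested.

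Nlgn2 was detected more often in FOS+ nuclei in 4 of 4 conditions, by 10.0 to 32.5 points. It was detected in 12 of 21 FOS+ and 8 of 20 FOS- nuclei at 1 to 200 and in 14 of 19 and 9 of 21 at 1 to 2000. The part of the number of genes detected per nucleus in these differences was not tested. The CPM of Nlgn2 was higher in FOS+ nuclei in 3 of 4 conditions, with log2 ratios from -0.22 to 3.36. Nlgn1 varied most among the neuroligins, from 30 points higher in FOS+ nuclei (1 µM, 1 to 2000) to 54.5 points lower (10 µM, 1 to 2000). The neurexins each had a higher share in FOS+ nuclei in 3 of 4 conditions.

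**Figure D3:**
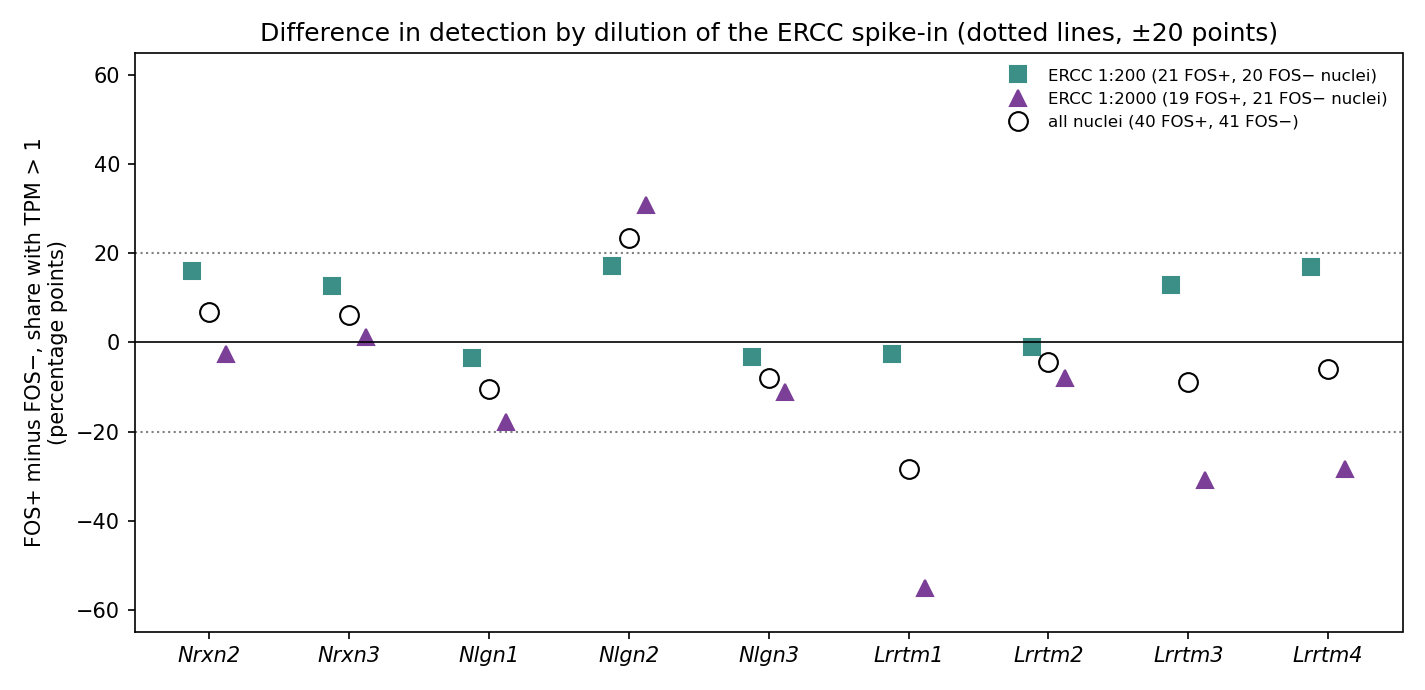
Difference between FOS+ and FOS- nuclei in the share with TPM above 1 (y axis, percentage points) for each gene, over all nuclei (circles) and within each ERCC dilution (squares, 1 to 200; triangles, 1 to 2000). Lrrtm1 lies near 0 at 1 to 200 and at -55.1 points at 1 to 2000, Lrrtm3 and Lrrtm4 lie on opposite sides of 0, and Nlgn2 lies above 0 at both.

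Counted per nucleus, a median of 5 of the 9 members was detected in FOS+ nuclei (range 2 to 8) and also 5 in FOS- nuclei (range 2 to 9). None of the 4 LRRTM genes was detected in 9 of 40 FOS+ nuclei (22.5%, 10.8 to 38.5) and in 2 of 41 FOS- nuclei (4.88%, 0.596 to 16.5). At least 2 LRRTM genes were detected in 19 of 40 (47.5%, 31.5 to 63.9) and 24 of 41 (58.5%, 42.1 to 73.7). At least 2 of the 3 neuroligins were detected in 31 of 40 and 30 of 41. Both neurexins were detected in 18 of 40 and 14 of 41. All these counts pool the 4 amplification conditions and were not split by condition. With 1 µM oligonucleotide at 1 to 2000, Lrrtm1 and Lrrtm2 were each detected in 0 of 8 FOS+ nuclei, and Lrrtm3 and Lrrtm4 each in 2 of 8. In FOS- nuclei of that condition the 4 genes were detected in 7, 2, 5 and 7 of 10. The part of the conditions, and of the number of genes detected per nucleus, in these counts was not tested.

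In whole cells Lrrtm1, Lrrtm4 and Nlgn3 had the highest mean TPM of the members after both treatments, and 0 of the 4 LRRTM genes passed either size limit between PTZ and saline. Lrrtm1 was detected in 23 of 30 PTZ-treated cells (76.7%, 57.7 to 90.1) and 30 of 38 saline-treated cells (78.9%, 62.7 to 90.5), and median TPM was 173 and 172, with highest values of 1757 and 936. Lrrtm4 was detected in 26 of 30 (86.7%, 69.3 to 96.2) and 36 of 38 (94.7%, 82.3 to 99.4), with median TPM of 129 and 215 and a CPM 1.36-fold higher in saline-treated cells. Lrrtm2 was detected in 24 of 30 (80.0%, 61.4 to 92.3) and 25 of 38 (65.8%, 48.6 to 80.4), with median TPM of 39.5 and 17.1. Lrrtm3 was detected in 17 of 30 and 19 of 38, with median TPM of 8.51 and 3.86. The TPM ranges of the 2 treatments overlapped for all 4 genes.

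Nlgn3 was detected in 24 of 30 PTZ-treated cells (80.0%, 61.4 to 92.3) and in 38 of 38 saline-treated cells (100%, 90.7 to 100), 20 points apart. Its level did not follow, with a median TPM of 169 after PTZ and 151 after saline and a log2 ratio of summed counts of 0.02. In PTZ-treated cells TPM ran from 0 to 416, and in saline-treated cells from 2.84 to 487. The 6 PTZ-treated cells without Nlgn3 had 3314 to 5224 genes detected (median 4085) and 289553 to 1618450 counts, while the other PTZ-treated cells had a median of 6012 genes. The part of the number of genes in the missing detection was not tested. Across 14492 genes, 4.35% were detected at least 20 points more often in saline-treated cells, and 3.12% more often in PTZ-treated cells, where 0 of 9 members were. Leaving out 1 PTZ-treated cell with 833 TPM of the astrocyte gene Gfap brought the Nlgn3 difference to -17.2 points, under the limit.

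For the remaining neuroligins, Nlgn1 was detected in 23 of 30 and 25 of 38 cells, with median TPM of 17.5 and 13.9, and Nlgn2 in 24 of 30 and 28 of 38, with median TPM of 5.42 and 6.76. Nrxn2 was detected in 24 of 30 and 31 of 38 cells, with median TPM of 11.8 and 9.88. Nrxn3 was detected in 13 of 30 and 17 of 38, with median TPM of 0.41 and 0.56. Its highest value was 1934 TPM in a PTZ-treated cell and 185 TPM among saline-treated cells, and its log2 ratio was -0.23 from summed counts but 1.19 when each cell was weighed the same. By summed counts, 0 of 9 members passed 2-fold in either direction, where 13.2% of all genes were higher after PTZ and 14% higher after saline. A median of 7 of 9 members was detected per cell after both treatments, and a median of 3 of 4 LRRTM genes. Each treatment was 1 pool of cells, so treatment and pool cannot be told apart.

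**Figure D4:**
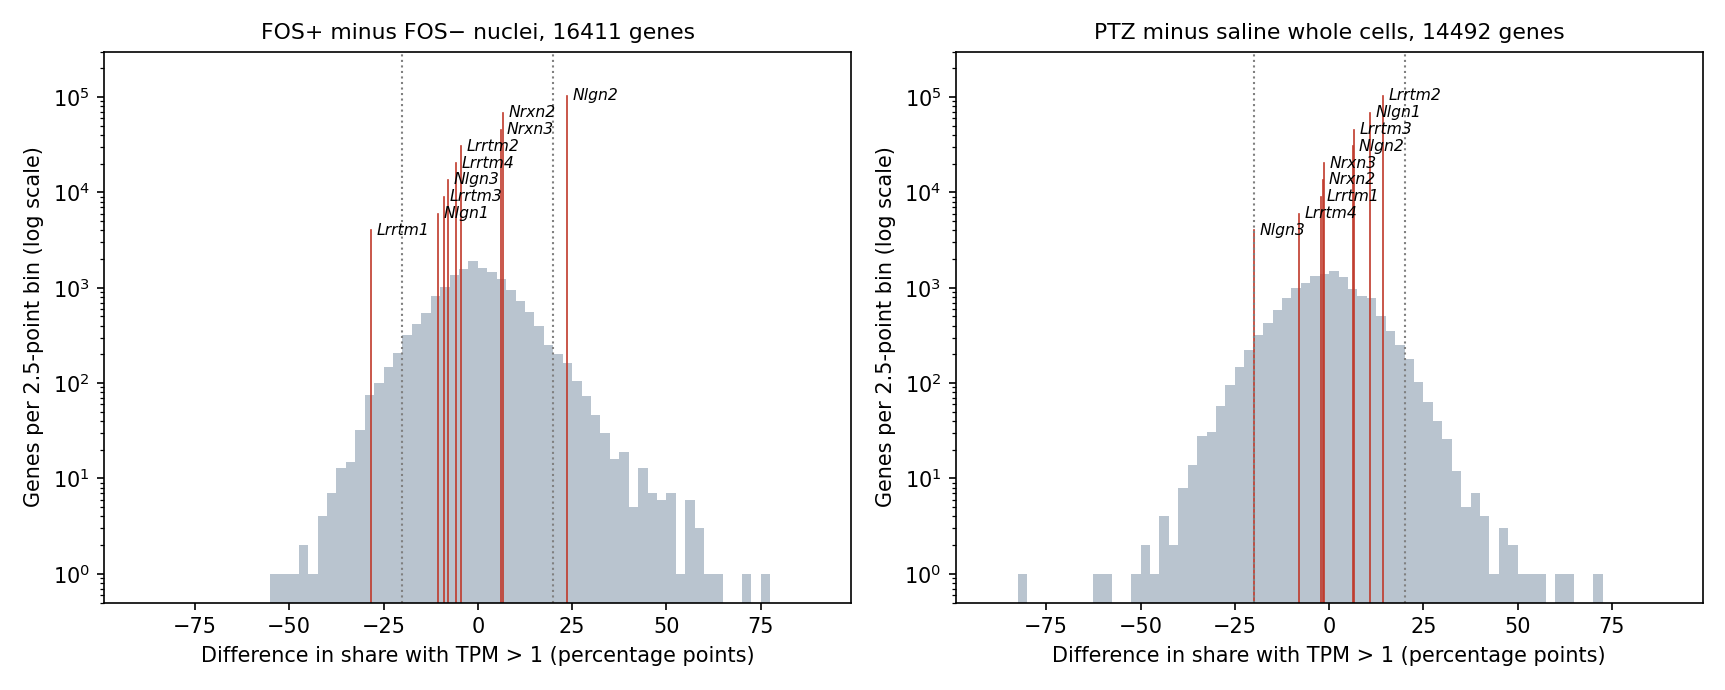
Number of genes (y axis, log scale) by difference in the share of cells with TPM above 1 (x axis, percentage points), for FOS+ minus FOS- nuclei (16411 genes) and PTZ minus saline whole cells (14492 genes). Red lines mark the 9 members (their height only spaces the names), of which Nlgn2 and Lrrtm1 lie beyond the dotted 20-point limits on the left plot and Nlgn3 lies on the limit on the right plot.

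In HC nuclei a median of 3 of 9 members was detected per nucleus (range 0 to 4), with a median of 3213 genes detected in all. Nrxn3 was detected in 12 of 23 nuclei (52.2%, 30.6 to 73.2), with a median of 1.75 and a highest value of 388 TPM. Nrxn2 was detected in 3 of 23 (13%, 2.78 to 33.6), with a highest value of 44.2 TPM. Among neuroligins, Nlgn1 was detected in 11 of 23, Nlgn3 in 7 and Nlgn2 in 6, each with a median of 0 TPM and highest values of 326, 137 and 175. Lrrtm4 was detected in 11 of 23 (47.8%, 26.8 to 69.4), and 1 nucleus at 3402 TPM held 56.7% of its 1402 summed counts. Lrrtm3 was detected in 5 nuclei and Lrrtm1 in 4, with highest values of 104 and 40.2 TPM. Lrrtm2 had no count in any of the 23 nuclei (0%, exact interval 0 to 14.8). A limit of 3 nuclei for a gene detected in 0 would be 13% of them.

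**Figure D5:**
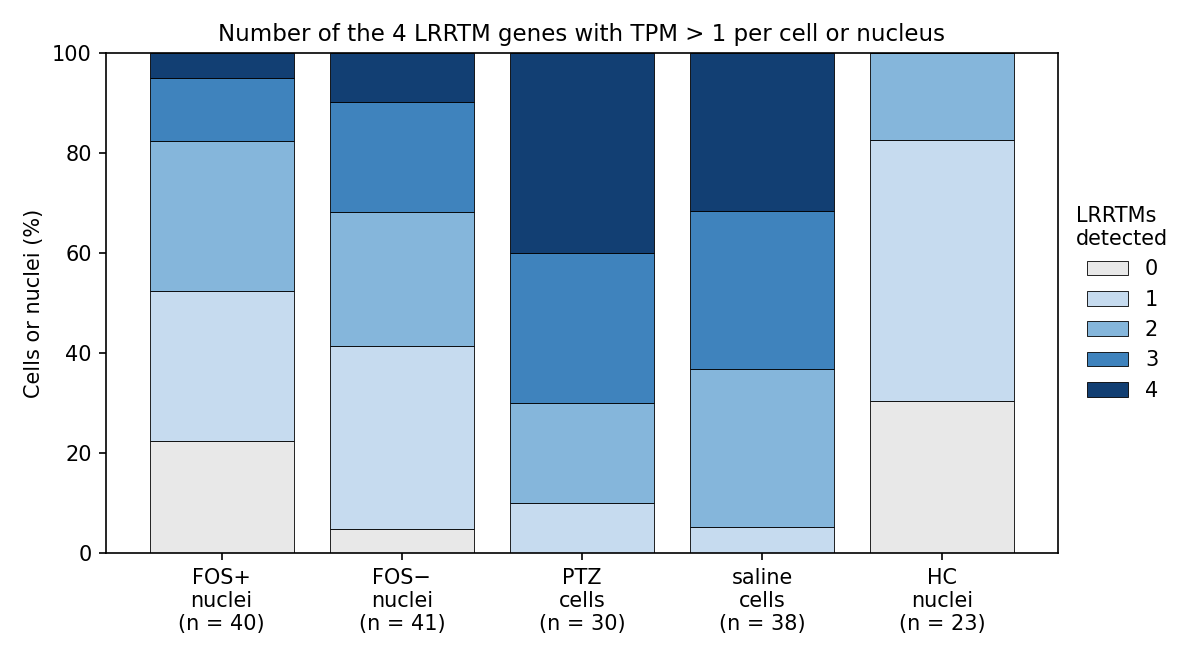
Percentage of cells or nuclei (y axis) in which 0, 1, 2, 3 or 4 of the 4 LRRTM genes had TPM above 1, by group. No LRRTM gene was detected in 22.5% of FOS+, 4.88% of FOS- and 30.4% of HC nuclei, and every whole cell had at least 1. The 4 amplification conditions of the FOS+ and FOS- nuclei are pooled, and these shares were not split by condition.

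The order of the members by mean TPM, which is scaled to transcript length, was set within each group. In saline-treated cells Lrrtm4 (235), Lrrtm1 (215) and Nlgn3 (196) led, followed by Lrrtm3 (56.4), Nlgn1 (37.4), Lrrtm2 (36), Nrxn3 (26.8), Nrxn2 (25.2) and Nlgn2 (15.7). In PTZ-treated cells the same 3 genes led, in the order Lrrtm1 (236), Nlgn3 (155) and Lrrtm4 (144), and Nlgn2 (20) was again last. Nrxn2 led in both FOS+ (177) and FOS- nuclei (197), and Lrrtm2 was last in both (4.01 and 8.20). In HC nuclei Lrrtm4 led (219, with the single high nucleus) and Nrxn3 followed (56.2). The interquartile ranges of neighbours in these orders overlapped in 7 of 8 pairs in FOS+ nuclei and PTZ-treated cells and in 8 of 8 pairs in the other 3 groups, so the order within a group was mostly not resolved beyond the spread between cells. The 2 gaps were between Nlgn3 and Lrrtm2 in FOS+ nuclei and between Lrrtm4 and Nrxn3 in PTZ-treated cells.

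The host genes of the nested LRRTMs were detected less often than the LRRTMs in whole cells. Ctnna2 was detected in 10 of 40 FOS+ nuclei (25%, 12.7 to 41.2) and 16 of 41 FOS- nuclei (39%, 24.2 to 55.5), lower in FOS+ nuclei as Lrrtm1 was. Both genes were detected together in 3 FOS+ and 12 FOS- nuclei, and Lrrtm1 without Ctnna2 in 12 and 15. Ctnna1 was detected in 1 FOS+ and 2 FOS- nuclei, none of which had Lrrtm2 detected. Ctnna3 was detected in 7 FOS+ and 12 FOS- nuclei, and together with Lrrtm3 in 1 and 5. In saline-treated cells Lrrtm2 was detected without Ctnna1 in 24 of 38 cells. The reads are not described as stranded. Reads of a nested gene and of its host on the opposite strand therefore cannot be told apart where their transcripts, spliced or unspliced, overlap. The part of unspliced host RNA in the counts of Lrrtm1, Lrrtm2 and Lrrtm3 was not tested.

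Other synaptic adhesion genes were taken from 5 lists with 71 genes in the tables. Of 62 compared between FOS+ and FOS- nuclei, 4 were detected at least 20 points more often in FOS+ nuclei, 4 less often and 54 differed by less. Those detected more often were the nectin genes Pvrl1 (62.5% against 29.3%) and Pvrl3 (67.5% against 39%), Slitrk3 (70.0% against 43.9%), whose protein binds a presynaptic receptor phosphatase at inhibitory synapses, and Lrrc4 (50% against 24.4%), a netrin-G ligand. Those detected less often were its relative Lrrc4c (30% against 56.1%), the calsyntenin gene Clstn1 (37.5% against 63.4%), Slitrk5 (45% against 65.9%) and the secreted C1q-like gene C1ql3 (70.0% against 90.2%). The 4 to 4 split over 62 genes compares with 4.30% and 3.69% of all genes.

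By list, the presynaptic partners and regulators of neurexins had 0 genes higher and 2 lower of 14 compared, and the postsynaptic partners of neuroligins and LRRTMs had 0 and 0 of 11. The latrophilins, teneurins and FLRTs had 0 and 0 of 9. The receptor phosphatases and their ligands had 2 higher and 2 lower of 19, and the immunoglobulin adhesion genes had 2 higher and 0 lower of 9. Between PTZ-treated and saline-treated cells, 61 of these genes were compared, of which Tenm3 was detected more often after PTZ (36.7% against 15.8%) and Tenm2 less often (63.3% against 92.1%). Both encode teneurins, which bind latrophilins across the cleft. The 1 to 1 split over 61 genes compares with 3.12% and 4.35% of all genes.

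Over the 81 NE nuclei, 7 of the 9 members had TPM above 1 in at least 50% of nuclei, and their most similar genes were sought among 4754 genes detected as often, by Spearman correlation of TPM. The nuclei share sort, depth and amplification conditions, and the values are a description. Ppp1r16b was most like Nrxn2 (0.55), Celf4 most like Nrxn3 (0.45), Ociad1 most like Nlgn3 (0.51) and Rapgefl1 most like Lrrtm1 (0.55). For Nlgn1 it was 9630010A21Rik (0.46), for Nlgn2 Gm28439 (0.47) and for Lrrtm4 Agfg2 (0.46). Between members the highest correlation was 0.32, between Nrxn2 and Nrxn3. Each gene named above was the highest of 4754, and a highest value rises with the number of genes searched. The values of these genes and those between members are therefore not comparable.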

How the data were processed

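Single whole cells and nuclei of mouse dentate granule cells were sequenced by the authors after Smart-seq2 amplification or, for HC nuclei, on the Fluidigm C1. Whole cells and HC nuclei were sequenced with paired ends, NE nuclei with single ends. The authors trimmed reads and aligned them to the mouse genome (GRCm38) with RSEM and, per the submitters' processing notes, Bowtie 1.0.0, using Ensembl genes. The deposited expected counts are unnormalized RSEM estimates per gene symbol, and were rounded here to whole numbers. The deposited TPM values were scaled by the authors within each cell.

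All 201 samples were grouped by their labels. The members and lists were chosen with earlier results of these data known. Cells with over 50000 counts and with a number of genes above 1 TPM no more than 2 SD under their table's mean were kept, and all HC nuclei were kept. Total counts ranged from 63775 to 1060520 in NE nuclei, 67212 to 5129240 in whole cells and 107647 to 278779 in HC nuclei. Genes with a count in at least 5 cells of a comparison formed its background. A group with 3 counts or fewer in all was set to 3 counts for ratios. The named genes were the 9 members, their host genes, up to 5 genes per direction from the adhesion lists past 20 points, and the genes most like each member. No test was run, because each group is 1 sample. The calculations were tested on simulated data and made in Python 3.11.15 (pandas 2.3.3, scipy 1.17.1), with TMM factors of the summed columns from edgeR 4.0.16. Alternatives were other detection limits, thinning to 50000 reads, all deposited cells, within-condition differences, equal weight per cell, 2 other scalings, leaving out the highest cell, and gene filters. The alternatives without marker-bearing cells and within each ERCC dilution were chosen after seeing the data. For whole cells the paper names 2 mice pooled per treatment, and the series record names 1.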

Additional observations from a re-analysis of the deposited data

Results flagged for a closer look

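The 7 FOS- nuclei left out for low depth, with total counts of 4000 to 46086, still held reads of the members. Over these nuclei 8 of the 9 members had more than 3 summed counts, the limit that a count of 0 allows, and the highest sum was 38 counts for Nlgn1. These nuclei had no part in the shares and ratios except in the alternative that used all deposited cells.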

How the results depend on the processing

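No paired analysis was possible because the labels carry no replicate numbers and the results come from no test. The number of members detected at least 20 points apart between FOS+ and FOS- nuclei was 2 (Nlgn2 and Lrrtm1). It was 1 (Lrrtm1) with TPM above 5, with thinning to 50000 reads, over all deposited cells and without marker-bearing cells. With a limit of 5 counts it was 0. Within the nuclei with ERCC at 1 to 200 it was 0, and within those at 1 to 2000 it was 4. The number past 2-fold was 3, and it was 5 with each cell weighed the same or without the highest cell per gene, which added Nlgn2 and Nlgn3. It was 4 with TMM scaling, with median-ratio scaling and without marker-bearing cells, which each added Nlgn2. It was also 4 at 1 to 200 (Nlgn2 and Lrrtm4 higher, Nlgn3 and Lrrtm2 lower). Between PTZ-treated and saline-treated cells the number past 20 points was 1 (Nlgn3). It was 0 with thinning, over all deposited cells and without marker-bearing cells. The number past 2-fold was 0, and it was 1 (Nrxn3) with each cell weighed the same. Of the differences called over all nuclei or cells, that in Lrrtm1 changed sign, with a log2 ratio of 0.82 at 1 to 200 against -1.90. The cause of these changes was not tested, except that fewer cells enter within a dilution. The percentage of all genes past 20 points was 7.99% between FOS+ and FOS- nuclei, 9.78% for genes in at least 10 cells and 5.59% with no filter on genes, and 7.47%, 8.67% and 5.19% between PTZ-treated and saline-treated cells. Depth and the number of cells limit these values, since an interval such as 48.3% to 79.4% for Nlgn2 in FOS+ nuclei is wider than the difference in share of every member between FOS+ and FOS- nuclei.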
